A study of Rattus norvegicus with 8 samples.

Results

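The genes described here are 35 genes of the cell cycle and DNA replication, measured in rat liver after a diet with perfluorooctane sulfonate (PFOS), a persistent fluorinated surfactant. The members were given as a list of names by function, and every array probe whose transcript accession belongs in RefSeq to 1 of these names was taken. Of the 35 genes, 31 had a probe, 39 probes in all, of which 23 genes had 1 probe and 8 had 2. A probe was tested where its liver signal was well above background, by the scanner software's own flag, on at least 4 of the 8 arrays. The tested members were 29 of the 15203 genes and other features that passed in the whole data set, namely 2 cyclins of G1, 9 genes of S phase and 18 genes of G2 and mitosis. Cdc6 and Rrm1 had a probe but did not pass, and the expression of Mcm5, Mki67, Top2a and Bub1b, which no probe matched, was not analysed here.

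Liver RNA came from 4 adult male Sprague-Dawley rats given a control diet and 4 given a diet with 50 mg PFOS per kg, both eaten freely for 28 days. Each rat had an array of its own, and the sample labels name separate animals. Liver RNA carried the dye Cy5 and a commercial universal rat reference RNA carried Cy3 on every array, so a ratio is the log2 of liver over reference, and no dyes were swapped. By the position codes in the names of the scans, the arrays sat in 2 rows of 1 slide, with control 1 and 2 and PFOS 1 and 2 in row 1 and the other 4 in row 2. The median Cy5 signal was 154.5 to 160 in row 1 and 116 to 138 in row 2, and 50.3 to 59.1% of probes were well above background.

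A cell that divides passes through G1, copies its DNA in S phase, and separates the copies in mitosis. The transcripts of S phase genes are switched on largely by E2F factors. Many genes of G2 and mitosis instead carry a CCAAT box and a cell cycle genes homology region (CHR), through which the DREAM and MuvB complexes act. Adult hepatocytes are mostly quiescent but can enter the cycle after loss of tissue or in response to agents that enlarge the liver. A bulk sample holds all liver cell types, and fewer cells of a type cannot be told apart from less RNA per cell.

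The promoters of 27 members were held in a RefSeq table of 27457 rat promoters, each the 250 bases before and 50 bases after a gene's start on the GRCr8 build. Exact letters were searched on both strands: CCAAT for the CCAAT box, TTTGAA for the CHR, and TTTCCCGC, TTTCGCGC, TTTGCCGC and TTTGGCGC for an E2F site. The 3 promoters below were printed because they show both kinds of promoter among genes that the results return to, 2 mitotic kinases and 1 replicative helicase subunit. Capitals mark the matches on either strand, and in Mcm7 the last E2F match and the CCAAT box after it share 1 base. Plk1 lies at chr1:186147408-186147707 on the plus strand, Cdk1 at chr20:19265043-19265342 on the plus strand and Mcm7 at chr12:22163129-22163428 on the minus strand.
Plk1: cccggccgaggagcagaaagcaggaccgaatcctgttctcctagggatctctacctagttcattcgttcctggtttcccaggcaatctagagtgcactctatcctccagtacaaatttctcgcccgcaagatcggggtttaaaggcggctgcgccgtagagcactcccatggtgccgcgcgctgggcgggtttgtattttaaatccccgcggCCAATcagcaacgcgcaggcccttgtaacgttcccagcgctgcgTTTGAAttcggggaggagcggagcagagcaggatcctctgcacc
Cdk1: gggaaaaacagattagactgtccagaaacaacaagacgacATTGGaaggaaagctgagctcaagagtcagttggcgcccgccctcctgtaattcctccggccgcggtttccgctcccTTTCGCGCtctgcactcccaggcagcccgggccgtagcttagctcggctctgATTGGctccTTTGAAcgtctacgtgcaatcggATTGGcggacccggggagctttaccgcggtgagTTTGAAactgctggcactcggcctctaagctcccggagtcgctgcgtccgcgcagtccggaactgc
Mcm7: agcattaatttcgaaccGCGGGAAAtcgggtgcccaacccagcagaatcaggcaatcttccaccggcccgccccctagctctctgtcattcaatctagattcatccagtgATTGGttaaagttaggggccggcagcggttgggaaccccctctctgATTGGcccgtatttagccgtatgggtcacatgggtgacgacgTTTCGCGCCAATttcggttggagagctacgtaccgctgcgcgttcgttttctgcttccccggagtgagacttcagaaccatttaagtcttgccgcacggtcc

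Among members in that table, the mitotic genes and the S phase genes held different letters. A CCAAT box and a CHR stood together in 11 of 17 mitotic promoters (64.7%), in 0 of 9 S phase promoters and in 7.25% of all promoters. The CHR alone was in 12 of 17 mitotic promoters (70.6%), in 1 of 9 S phase promoters, that of Mcm2, and in 18.1% of all. An E2F site was in 6 of 9 S phase promoters (66.7%), in 1 of 17 mitotic promoters, that of Cdk1, and in 2.25% of all. The CCAAT box was common in both classes, with 14 of 17 (82.4%) and 6 of 9 (66.7%) against 37.7% of all promoters. The E2F matches of Mcm2, Mcm5 and Mcm6 overlapped each other by 4 bases, so each such pair is 1 stretch of DNA. A match is a description of the letters, not evidence of a bound site.

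Of the 29 tested members, 1 fell with PFOS and 0 rose, by limma with a Benjamini-Hochberg adjusted p under 0.05 over all 15203 features. The gene that fell was Rrm2, the small subunit of the enzyme that makes deoxyribonucleotides for DNA synthesis. Across all features, 3.97% were called, 2.14% lower and 1.83% higher, so 1 of 29 is near the background. The other 28 members did not pass, of which 22 had a difference below 0. Counting Rrm2, 23 of 29 differences lay below 0 with a median of -0.10 on the log2 scale, whereas over all features 52.3% lay below 0 with a median of -0.01. At an unadjusted p under 0.05 the members numbered 5 lower and 2 higher, and over all features 19.9% reached that level and 10.9% were lower at it.

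**Figure D1:**
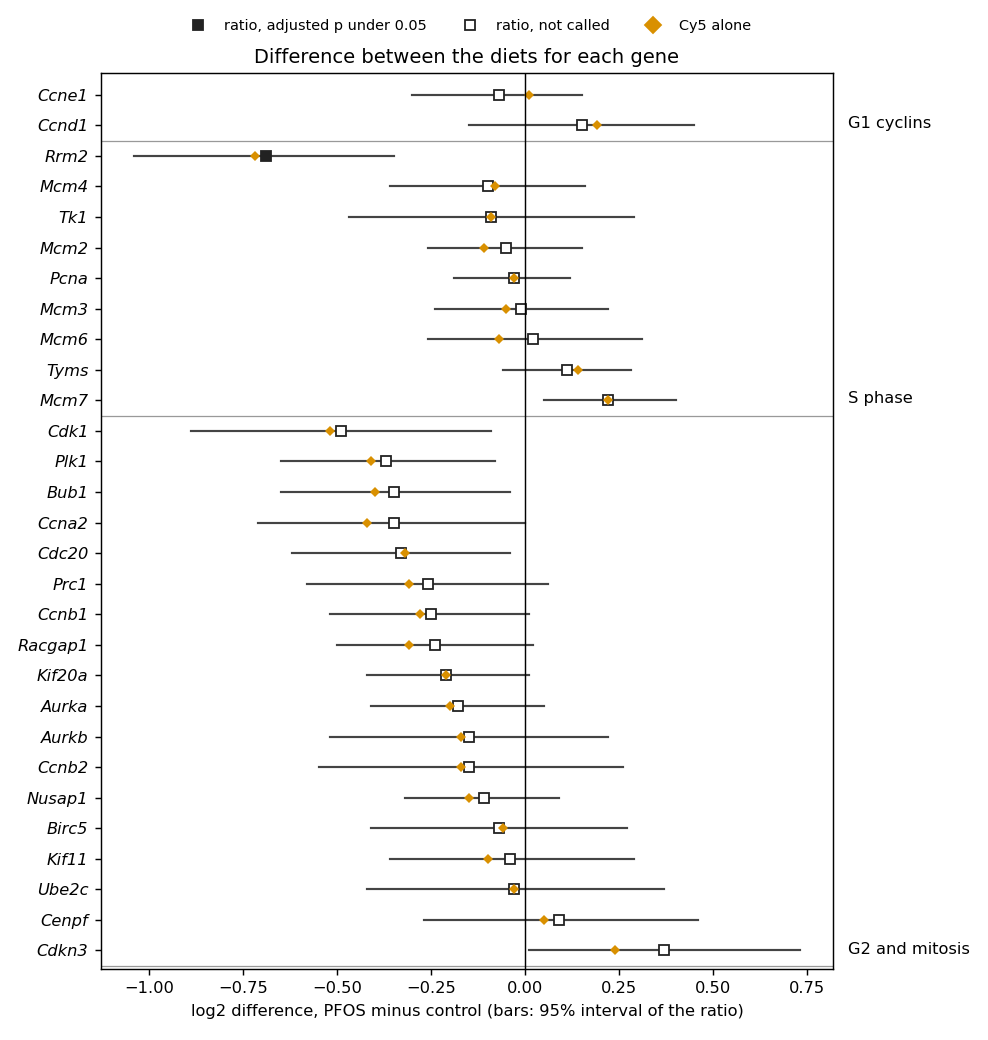
The difference PFOS minus control in log2 units is plotted for each of the 29 tested members, by class, with squares for the Cy5/Cy3 ratio (bars are 95% intervals, filled where the adjusted p is under 0.05) and diamonds for Cy5 alone. Rrm2 is the only filled square, at -0.69, and 16 of 18 mitotic genes lie to the left of 0.

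The liver channel taken alone, without the reference, gave the same count of 1 gene lower and 0 higher. In that channel 4.69% of all features were called, 2.47% lower and 2.22% higher, and the member was again Rrm2. The members' median difference was -0.11 in Cy5 alone, with 23 of 29 below 0, whereas 52.4% of all features lay below 0. In the reference channel, where 0.0789% of all features were called, the members differed by -0.04 to 0.08, and every tested member was well above background in it on all 8 arrays. In the liver channel 25 of the 29 were well above background on all 8 arrays. The exceptions were Mcm6 on 2 control and 2 PFOS arrays, Ccnb2 on 4 and 3, Aurkb on 4 and 2, and Cdkn3 on 1 and 3. On none of the 8 arrays did the second probes of Mcm4, Bub1, Prc1 and Cenpf reach well above background.

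Rrm2 was the member with the greatest difference. Its log2 ratio was -3.77, -3.79, -3.60 and -3.94 on control arrays 1 to 4 and -4.65, -4.41, -4.76 and -4.04 on PFOS arrays 1 to 4. All 4 PFOS values lay below all 4 control values, and PFOS 4 came closest to the controls. In all, 6.89% of features had PFOS values wholly below control values. The means were -3.77 ± 0.14 in controls and -4.46 ± 0.32 with PFOS (SD, n = 4), a fall of 1.61-fold (log2 difference -0.69, SE 0.15, 95% interval -1.04 to -0.35, limma adjusted p = 0.0422). In Cy5 alone the fall was 1.64-fold (-0.72, SE 0.16, limma adjusted p = 0.0344), again with no overlap. The difference was -0.75 within slide row 1 and -0.63 within row 2.

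The call on Rrm2 was close to the threshold. It was lost when any 1 of the 4 control arrays or PFOS 1, 2 or 3 was left out (limma adjusted p 0.0608 to 0.108), and without PFOS 4 the difference was -0.83 (limma adjusted p = 0.00981). It was also lost with slide row as a block (limma adjusted p = 0.0547) and under 8 other settings, among them each slide row taken alone, while the difference in ratio lay between -0.83 and -0.59 in the settings tried. A second Rrm2 probe was well above background on 2 control arrays and no PFOS array, with mean ratios of -2.22 ± 0.16 and -2.44 ± 0.33 (SD, n = 4). Rrm1, the large subunit, had 1 probe, well above background on 1 control array and no PFOS array, with mean ratios of -0.49 ± 0.19 and -0.58 ± 0.34 (SD, n = 4). With so few arrays above background, no fold is given for either probe.

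**Figure D2:**
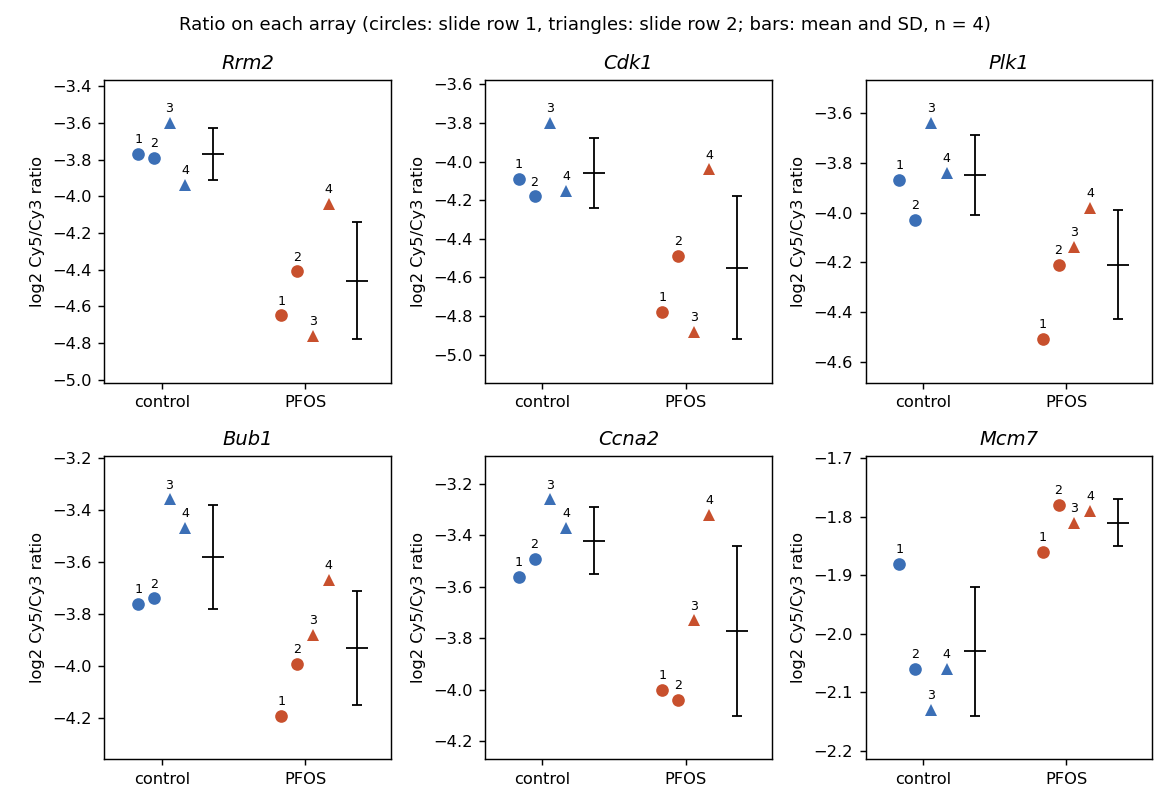
The log2 Cy5/Cy3 ratio of 6 members is plotted on each of the 8 arrays, numbered by replicate, with circles for slide row 1, triangles for row 2, and the mean and SD of each group (n = 4) beside them. The PFOS values of Rrm2 lie below all control values and those of Mcm7 above them, and in Rrm2, Cdk1, Plk1, Bub1 and Ccna2 PFOS 4 is the highest of its group.

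The other S phase genes lay on both sides of 0. The 9 tested genes had 6 differences below 0, a median of -0.03 and a range of -0.69 to 0.22. Mcm2, Mcm3, Mcm4, Mcm6 and Mcm7 encode subunits of the helicase that unwinds DNA at the fork, and their 5 differences were -0.05, -0.01, -0.10, 0.02 and 0.22, none of which passed. Mcm7 had ratios of -1.88, -2.06, -2.13 and -2.06 in controls and -1.86, -1.78, -1.81 and -1.79 with PFOS. Every PFOS value was above every control value, by as little as the gap between -1.88 and -1.86, and in Cy5 alone the groups overlapped. Over all 15203 features, the ratios of 12.8% did not overlap in either direction, and those of 898 features were wholly higher with PFOS. The difference was 0.22 (SE 0.08, 95% interval 0.05 to 0.40, limma adjusted p = 0.159). The helicase subunits thus gave 0 calls, and the second probes of Mcm2 and Mcm3 differed by 0.09 and -0.19.

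Pcna, the sliding clamp that holds polymerases on DNA, had control ratios of -2.11, -2.16, -2.19 and -2.14 and PFOS ratios of -2.26, -2.11, -2.19 and -2.17. PFOS 1 lay below every control and the other 3 PFOS values within the control range, and the difference was -0.03 with a 95% interval of -0.19 to 0.12. Tyms, thymidylate synthase, differed by 0.11 (interval -0.06 to 0.28), and Tk1, the thymidine kinase of the salvage route, by -0.09 (interval -0.47 to 0.29). Control 4 was the lowest Tk1 value of all 8 arrays, at -2.72. Cdc6, which loads the helicase at origins, was well above background on 2 control arrays and no PFOS array, with mean ratios of -1.82 ± 0.11 and -1.75 ± 0.25 (SD, n = 4), so no fold is given.

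The cyclins of G1 did not pass. Ccnd1, the D-type cyclin that links growth signals to the cycle, had control ratios of -1.45, -1.54, -1.19 and -1.58 and PFOS ratios of -1.12, -1.41, -1.57 and -1.08. The groups overlapped widely, with a difference of 0.15 (SE 0.13, 95% interval -0.15 to 0.45, limma adjusted p = 0.581). Ccne1, the E-type cyclin of S phase entry, differed by -0.07 (SE 0.10, interval -0.30 to 0.15, limma adjusted p = 0.734).

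The 18 tested genes of G2 and mitosis lay mostly below 0, and 0 of them were called, against 2.14% of all features called lower. Their differences were below 0 for 16 of 18, against 52.3% of all features. They had a median of -0.19 and a range of -0.49 to 0.37. Cy5 alone gave 16 of 18 below 0 and a median of -0.20. The median was -0.37 with Agilent's processed signals, -0.30 with a background offset of 0 and -0.12 without PFOS 1. At an unadjusted p under 0.05, Cdk1, Plk1, Bub1 and Cdc20 were lower and Cdkn3 higher. Over all features, 19.9% reached that level and 10.9% were lower at it.

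Cdk1, the kinase that drives entry into mitosis, had the greatest mitotic difference. Its ratios were -4.09, -4.18, -3.80 and -4.15 in controls and -4.78, -4.49, -4.88 and -4.04 with PFOS. PFOS 1, 2 and 3 lay below every control and PFOS 4 lay among the controls. The difference was -0.49 (SE 0.18, 95% interval -0.89 to -0.09, limma adjusted p = 0.172), and it was -0.50 in row 1 and -0.49 in row 2. The probe was printed 10 times on each array, and its single spots had an SD of 0.10 to 0.22 within an array. An array value is the mean of those spots, so that SD is wider than the spot error of an array value. The array values had an SD of 0.18 among the control rats and 0.37 among the PFOS rats. Without PFOS 4, Cdk1 was called lower at -0.66 (limma adjusted p = 0.0358).

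The cyclins that partner Cdk1 had smaller differences of the same sign. Ccna2, which acts from S phase into G2, had ratios of -3.56, -3.49, -3.26 and -3.37 in controls and -4.0, -4.04, -3.73 and -3.32 with PFOS. PFOS 4 was again within the control range and the other 3 below it, with a difference of -0.35 (SE 0.16, limma adjusted p = 0.257), and its second probe differed by -0.23. Ccnb1, a B-type cyclin of mitotic entry, had ratios of -2.61, -2.79, -2.41 and -2.66 in controls and -3.08, -2.92, -2.87 and -2.62 with PFOS, a difference of -0.25 (SE 0.12, limma adjusted p = 0.271). Ccnb2 differed by -0.15 (SE 0.18, limma adjusted p = 0.696). Cdkn3, a phosphatase that acts on cyclin-dependent kinases, was the main exception, with control ratios of -0.76, -0.51, -0.73 and -0.40 and PFOS ratios of -0.20, -0.18, 0.11 and -0.66. Its groups overlapped through PFOS 4, with a difference of 0.37 (SE 0.16, limma adjusted p = 0.240), and since it was well above background on 1 control and 3 PFOS arrays it passed the filter mostly through the group where it was higher.

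Among the other mitotic kinases, Plk1, which acts at centrosomes and kinetochores, had ratios of -3.87, -4.03, -3.64 and -3.84 in controls and -4.51, -4.21, -4.14 and -3.98 with PFOS. PFOS 4 lay above control 2, the lowest control, and the other 3 lay below all controls. The difference was -0.37 (SE 0.13, 95% interval -0.65 to -0.08, limma adjusted p = 0.157). Bub1, a kinase of the spindle checkpoint, had ratios of -3.76, -3.74, -3.36 and -3.47 in controls and -4.19, -3.99, -3.88 and -3.67 with PFOS. Its groups overlapped in the same way, with a difference of -0.35 (SE 0.13, 95% interval -0.65 to -0.04, limma adjusted p = 0.195). For both genes the overlap lay between PFOS 4, in slide row 2, and control arrays of row 1. The differences in row 1 and row 2 were -0.41 and -0.32 for Plk1 and -0.34 and -0.36 for Bub1. With slide row as a block neither was called (limma adjusted p = 0.0883 for Plk1 and 0.063 for Bub1). With the arrays scaled to a common spread, Plk1 and Bub1 were called lower (-0.49 and -0.46, limma adjusted p = 0.0343 and 0.0376) and Rrm2 was not. The Aurora kinases Aurka and Aurkb, of spindle poles and of the chromosomal passenger complex, differed by -0.18 and -0.15, and Birc5, a partner of Aurkb in that complex, by -0.07.

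The exit from mitosis is driven by the anaphase-promoting complex. Cdc20, its activator, had ratios of -2.38, -2.50, -2.14 and -2.50 in controls and -2.94, -2.81, -2.67 and -2.42 with PFOS, with only PFOS 4 inside the control range. The difference was -0.33 (SE 0.13, limma adjusted p = 0.200). Ube2c, a ubiquitin-conjugating enzyme of the same complex, differed by -0.03 (95% interval -0.42 to 0.37).

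Proteins of the spindle and of cytokinesis followed with differences from -0.26 to 0.09. Prc1, which bundles the microtubules of the midzone, had ratios of -3.38, -3.39, -3.05 and -3.18 in controls and -3.75, -3.64, -3.52 and -3.14 with PFOS. Its 10 spots gave a difference of -0.26 (SE 0.14, limma adjusted p = 0.337). Racgap1, a subunit of centralspindlin, differed by -0.24 in both slide rows (SE 0.12, limma adjusted p = 0.289), and Agilent's processed signals called it lower at -0.57 (limma adjusted p = 0.0422) in place of Rrm2. Kif20a, a kinesin of cytokinesis, differed by -0.21 and Nusap1, which binds spindle microtubules, by -0.11. Kif11, the kinesin that pushes spindle poles apart, differed by -0.04 (95% interval -0.36 to 0.29), and Cenpf, of the outer kinetochore, by 0.09 (interval -0.27 to 0.46). In Cy5 alone the groups of Aurkb, Bub1, Plk1 and Racgap1 did not overlap, with PFOS lower, as for 7.33% of all features; Aurkb was well above background on 2 PFOS arrays.

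**Figure D3:**
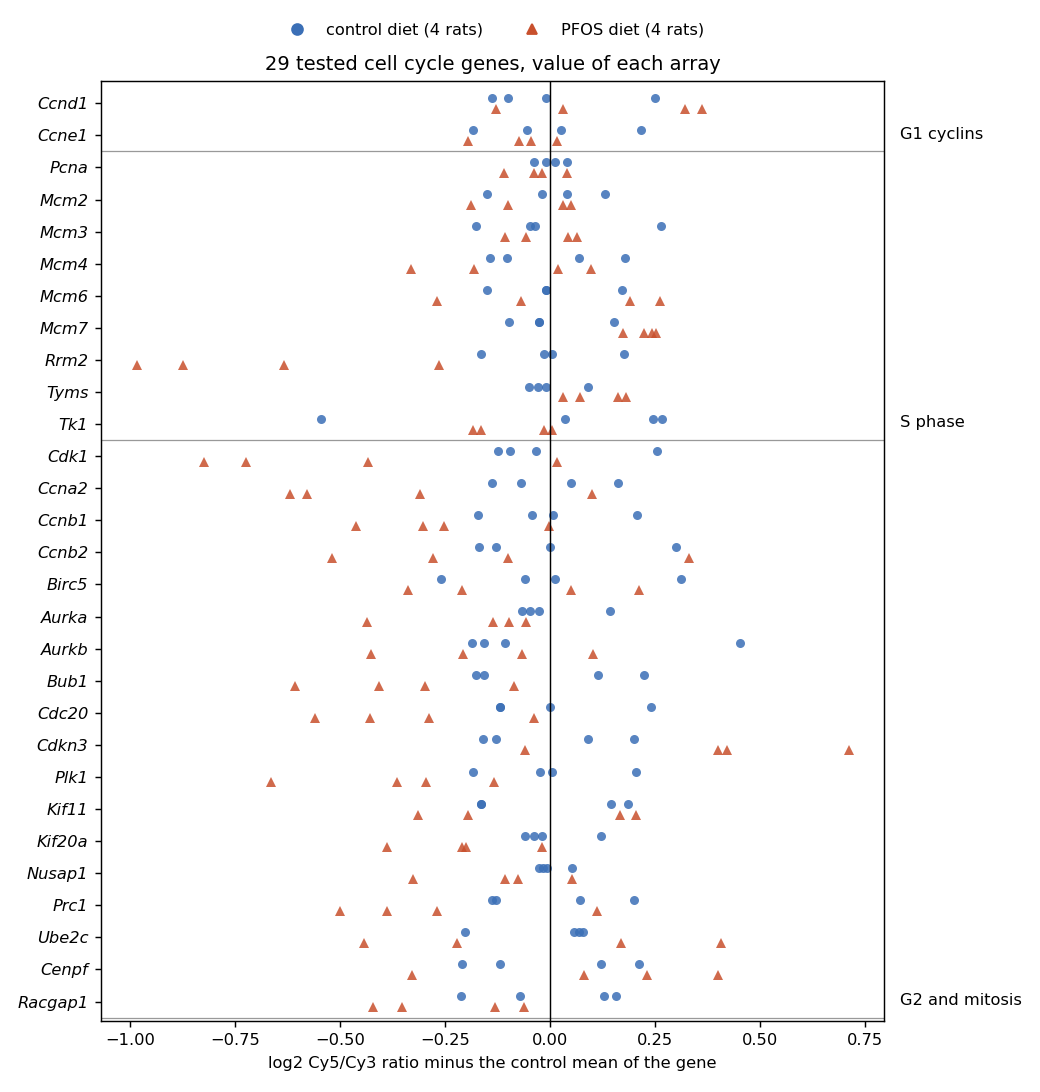
Each point is the log2 Cy5/Cy3 ratio of 1 tested member on 1 array, less that gene's control mean, with circles for 4 control rats and triangles for 4 PFOS rats. The PFOS values of Rrm2 lie furthest to the left, and most mitotic genes have PFOS values on both sides of the lowest control value.

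Many mitotic genes were high or low on the same arrays within a group. Taking the median over the 18 genes of the ratio less the control mean, the controls were at -0.07, -0.13, 0.16 and 0.02 and the PFOS arrays at -0.44, -0.22, -0.17 and 0.03. PFOS 4 lay among the controls and the other 3 PFOS arrays lay below them. Control 3 was the highest control for 14 of 18 genes, PFOS 4 the highest PFOS array for 14, and PFOS 1 the lowest PFOS array for 15. Control 4 and PFOS 3 were each the highest of their group for 4 genes. Every highest value of a group was thus in slide row 2, where the median Cy5 signal was lower. PFOS 1 sat in row 1, as did control 1 and control 2, the lowest controls for 9 and 8 genes. Slide row and differences between the rats in each row cannot be told apart. The same median over all 15203 features stayed between -0.03 and 0.01 on every array.

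The S phase medians covered a narrower range. Over the 9 genes, control 3 was the lowest control for 6, PFOS 1 the lowest PFOS array for 5 and PFOS 4 the highest for 5. Their medians over 9 genes were 0.04, -0.01, -0.10 and 0.01 in controls and -0.11, 0.04, -0.04 and 0.02 with PFOS. The groups overlapped, and PFOS 1, the lowest, lay just below control 3. The mitotic median less the S phase median was -0.11, -0.11, 0.26 and 0.01 on the control arrays and -0.33, -0.26, -0.13 and 0.01 on the PFOS arrays. PFOS 1, 2 and 3 had lower values than any control and PFOS 4 equalled control 4 to the printed decimals. These are medians of differing sets of genes chosen by function, and the contrast between the classes was not tested.

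**Figure D4:**
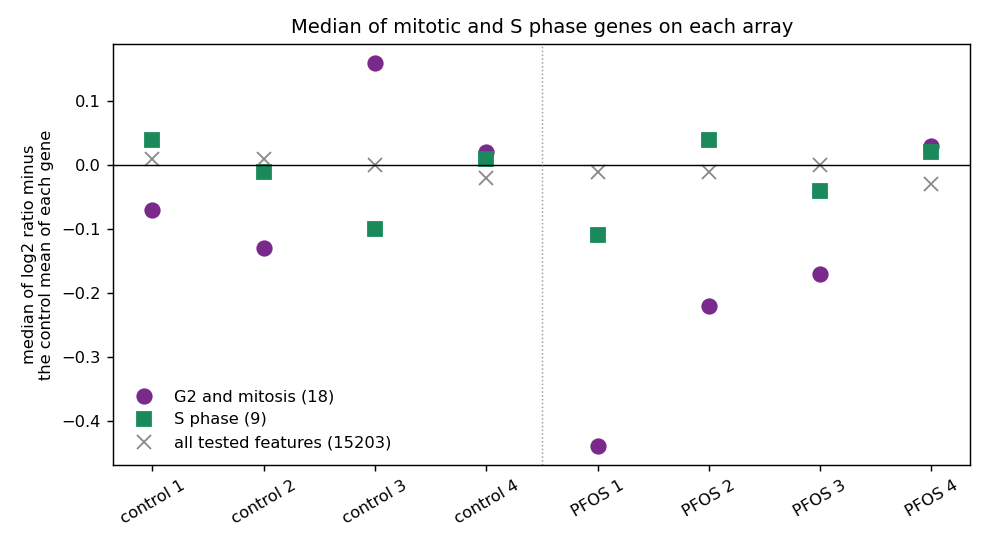
The median over genes of the log2 ratio less each gene's control mean is plotted for each array, for 18 genes of G2 and mitosis (circles), 9 of S phase (squares) and all 15203 features (crosses). The mitotic median runs from -0.13 to 0.16 over the controls and from -0.44 to 0.03 over the PFOS arrays, and the S phase median from -0.11 to 0.04 over all 8.

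The sign held in both slide rows for most mitotic genes. In row 1, 16 of 18 had a difference below 0, in row 2, 13 of 18, and 13 were below 0 in both. Of the 9 S phase genes, 7 were below 0 in row 1, 4 in row 2 and 4 in both. The median of the S phase genes was -0.10 in row 1 and 0.06 in row 2, whereas that of the mitotic genes was -0.25 and -0.15. Without PFOS 4 the mitotic median was -0.28, and Cy5 alone then called 5 members lower, Rrm2, Cdk1, Ccna2, Bub1 and Plk1.

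Other genes of the cycle, grouped by role, gave 2 calls lower and 0 higher among 89 tested of 133 listed, and 4 lower in Cy5 alone. Over all features 2.14% were called lower in the ratio and 2.47% in Cy5 alone, so 2 of 89 is near the background. Origin licensing and replication fork genes had 0 calls among 29 tested, with 14 below 0 and a median of 0.00. The nearest to the threshold were Orc3, a subunit of the origin recognition complex, at 0.32 (limma adjusted p = 0.0801), and Dut, which removes dUTP, at 0.27 (limma adjusted p = 0.194). Other cyclins, kinases and phosphatases had 0 calls among 14 and a median of 0.00, led by Cdc25a, a phosphatase that activates cyclin-dependent kinases, at 0.24 (limma adjusted p = 0.199), and Ccnd2 at -0.17 (limma adjusted p = 0.310). The E2F, DREAM and MYC factors had 0 calls among 11 and a median of -0.03. Their differences ran from -0.39 for Tfdp1 to 0.72 for Myc (limma adjusted p = 0.360 for Myc), with 6 below 0 and 5 above. The smallest p were those of Tfdp1, an E2F partner, at -0.39 (limma adjusted p = 0.310), and Max, the partner of MYC, at -0.17 (limma adjusted p = 0.324). The Tfdp1 ratio of control 4 was -0.83 against -1.76 to -1.62 on the other controls, its log2 Cy3 signal there was 11.45 against 12.17 to 12.34, and in Cy5 alone the difference was -0.15.

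Inhibitors of cyclin-dependent kinases and the RB family had 1 call among 12 and a median of -0.09. Ccng2, an atypical cyclin linked to cell cycle arrest, had ratios of -0.18, 0.05, -0.20 and -0.21 in controls and -0.56, -0.42, -0.62 and -0.56 with PFOS. No values overlapped, and it fell by 1.33-fold (log2 difference -0.41, SE 0.09, limma adjusted p = 0.0358). It also fell in Cy5 alone (-0.39, limma adjusted p = 0.0289). Cdkn2d, an inhibitor of the kinases that pair with D-type cyclins, differed by -0.38 (limma adjusted p = 0.132).

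Kinetochore, spindle and cytokinesis genes were the list closest in role to the mitotic members. They had 18 of 23 differences below 0, against 52.3% of all features, a median of -0.10 and 1 call. Ckap2, which stabilises spindle microtubules, had ratios of -3.53, -3.51, -3.25 and -3.42 in controls and -4.17, -4.05, -3.88 and -3.72 with PFOS. All PFOS values were below all controls, and it fell by 1.44-fold (log2 difference -0.52, SE 0.11, limma adjusted p = 0.0401). It also fell in Cy5 alone (-0.60, limma adjusted p = 0.0202). Tacc3, a spindle protein, and Aspm, of the spindle poles, fell in Cy5 alone (-0.40 and -0.41, limma adjusted p = 0.0433 and 0.0459) but did not pass in the ratio (-0.33 and -0.32, limma adjusted p = 0.0783 and 0.252). Leaving out 1 array ended the call on Ckap2 for each array but PFOS 4 (limma adjusted p 0.0700 to 0.0996) and the call on Ccng2 for each array but PFOS 2 (limma adjusted p 0.0596 to 0.0896).

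**Figure D5:**
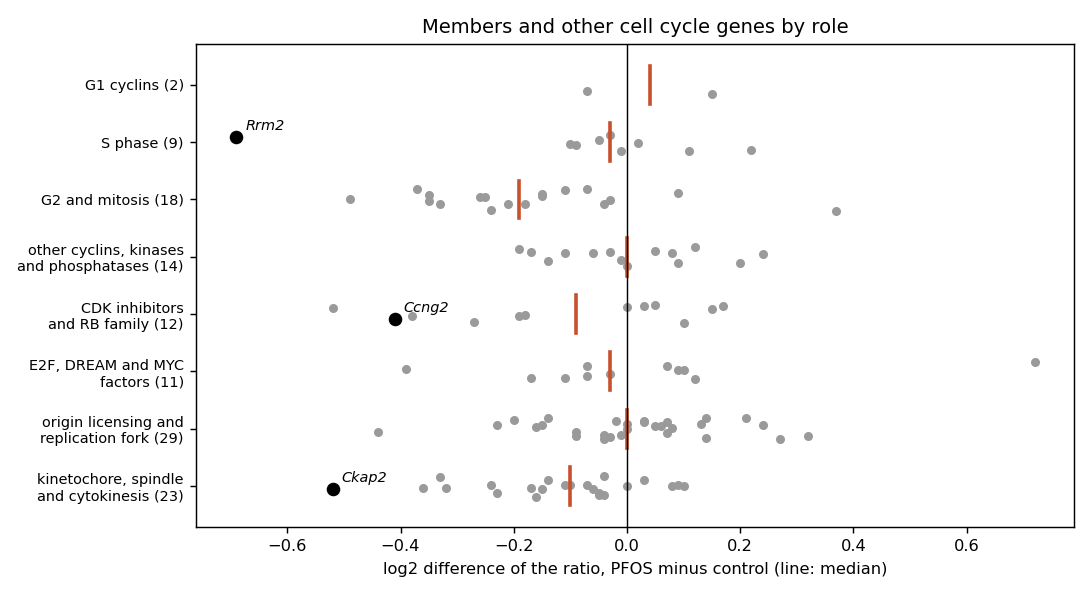
Each point is the log2 difference of the ratio, PFOS minus control, of 1 tested gene, by list with the number tested, black and named where the adjusted p was under 0.05; lines are medians. The median is -0.19 for mitotic members and -0.10 for kinetochore, spindle and cytokinesis genes, and 0.00 for licensing and fork genes.

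Markers of liver cell types gave 0 calls in the ratio in each of 8 lists. The 9 hepatocyte markers had a median difference of -0.10, and their mean ratio was 6.93 to 7.16 over the control arrays and 6.85 to 7.08 over the PFOS arrays. In Cy5 alone Apoa1 and Serpina1 were called lower (-1.80 and -0.29), but Apoa1 was also lower in the reference channel, which held the same RNA on every array (-1.38, limma adjusted p = 0.0107). Over all features, 52.3% of differences lay below 0. All 4 tested of 6 listed markers of sinusoidal endothelium were below 0, with a median of -0.50 and a range of -0.69 to -0.06. Their mean ratios were 3.69 to 4.54 in controls and 3.45 to 4.06 with PFOS. For Kupffer cells and macrophages, 8 of 9 were below 0 with a median of -0.15 and a range of -0.78 to 0.01. Their mean ratios were 4.03 to 4.86 and 3.78 to 4.76. The 3 tested of 5 listed erythroid markers were all below 0 with a median of -0.47, and their mean ratios were 0.97 to 2.18 and 1.19 to 1.54. The 5 tested of 8 listed lymphocyte markers had a median of -0.06 and the 2 of 5 neutrophil markers -0.36. The 6 stellate cell markers had a median of -0.13, with 4 below 0 and 2 above, from -0.48 for Col3a1 to 0.31 for Col1a1. The 3 tested of 5 listed cholangiocyte markers had a median of 0.11, from 0.02 to 0.66 for Epcam. The part of these cell types in the values of the mitotic genes was not tested.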

How the data were processed

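Two-colour Agilent arrays measured liver messenger RNA of 4 control and 4 PFOS rats. The deposited scanner files hold spot intensity values of both channels on a linear scale. The authors extracted them with Agilent Feature Extraction 10.7.3.1, as the submitters' processing notes state. A value table deposited by the authors holds log2 ratios. Its columns correlated at 0.995 to 0.997 with log2 Cy5/Cy3 (slopes 0.989 to 0.993), from which its scale and direction were read. Its column medians were -0.061 to -0.048, and how it was centred is unknown. Sample RNA was Cy5 per the labels.

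Each array had 62976 spots, 4259 of them controls. Median signals, the foreground the files hold, were background-corrected with normexp (offset 50) and then loess-normalized, giving control spots weight 0. Outlier spots were left out (922 to 1261 per array), none was saturated, and spots of a probe were averaged. Of 30367 probes, 18004 had 1 of 15154 symbols through RefSeq, and 16952 passed the filter of Cy5 signal well above background on 4 or more arrays. A gene was represented by its probe of highest mean Cy5 signal, which left 15203 features, 9619 with a symbol. Groups were compared with limma 3.58.1 in R 4.3.3 (two-sided, Benjamini-Hochberg over all features, called under 0.05), on ratios and on Cy5 alone (normexp, then quantile normalization between arrays). A difference is PFOS minus control, and the median SE was 0.11. The number of arrays limits the precision. Replicates are numbered in accession order, which pairs nothing. Slide and scan date were 1 each, and slide rows and columns, read from position codes in the scans' names, were tried as blocks.

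Members and lists were chosen by function, with earlier results of these data known. Every member is accounted for. Of the other cell cycle lists, genes called in the ratio or in Cy5 alone are named, and otherwise the 2 with the smallest p. For some lists, genes at an end of the range are named as well.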

Additional observations from a re-analysis of the deposited data

Results flagged for a closer look

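A value was singled out where, within a group of 4 arrays, its distance to the nearest other array took more than 0.829 of the group's range, Dixon's 95% critical value. Of 58 groups checked, 3 met this, and chance alone singles out about 1 in 20 groups. Aurka stood apart on control 3, with a log2 ratio of -2.20 against -2.41 to -2.37 on the other controls. Aurkb stood apart on control 4, at -1.44 against -2.08 to -2.00. Ube2c stood apart on control 2, at -3.37 against -3.11 to -3.09.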

How the results depend on the processing

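The 604 features called fell to 239 with median centring in place of loess and to 268 with slide column as a block, and were 350 to 519 with 1 array left out. Members called lower, 1 in the ratio, numbered 0 with an offset of 0, with median centring, without the filter on dim probes and with slide row or column as a block, 2 with scaling between arrays, and 0 to 2 with 1 array left out. In Cy5 alone the count of 1 was 0 without the filter and 0 to 5 with 1 array left out, and with slide row as a block it was Plk1 in place of Rrm2 (limma adjusted p = 0.0503 for Rrm2). Processed signals moved the median of all members to -0.23 and of the mitotic members to -0.37, and scaling moved the S phase median to -0.11. With 1 array left out the mitotic median was -0.28 to -0.12 and the S phase median -0.06 to 0.00. Slide rows taken alone, and the settings tried in Cy5 alone, were added after seeing the data; row 1 gave 93 calls, 0 members lower and an S phase median of -0.10, and row 2 gave 32, 0 and 0.06. In the ratio, the call was lost in 16 of 23 alternatives for Rrm2, 12 for Ccng2 and 13 for Ckap2 (with median centring, limma adjusted p = 0.184, 0.438 and 0.0835), and all 3 kept their sign under all 23.

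Signal over background limits Mcm6, Ccnb2, Aurkb and Cdkn3, and with 4 rats a group and a median SE of 0.11 small differences could not be detected. The size of some differences depended on the offset. An offset of 0 moved Ccna2, Bub1, Prc1 and Racgap1 from -0.35, -0.35, -0.26 and -0.24 to -0.54, -0.54, -0.46 and -0.45. It moved Aurkb, Ccnb2, Kif11 and Cdkn3 from -0.15, -0.15, -0.04 and 0.37 to -0.40, -0.30, -0.14 and 0.58. Rrm2, Mcm7 and Pcna moved less, from -0.69, 0.22 and -0.03 to -0.71, 0.24 and -0.04. The mitotic median less the S phase median went from -0.16 to -0.25. No paired analysis was possible because the labels name each animal and give the groups no shared replicate numbers, so arrays were matched only by place, each slide column holding 1 control and 1 PFOS array (the column block above).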
